A study of Homo sapiens with 6 samples.

Results

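DNA repair genes were examined for gene-end peaks of ENO1, H4K12la and HDAC1 in HepG2 cells, a long-established line grown from a human liver cancer. The genes were taken by symbol from the protein-coding genes of the RefSeq table for GRCh38: RAD, MSH, MLH, PARP or BRCA followed by a digit, symbols starting with XRCC, ERCC or FANC, and ATM, ATR, BLM, WRN and PALB2. This gave 73 of 19866 protein-coding genes. The peaks came from CUT&Tag, in which an antibody steers a transposase that cuts and tags nearby DNA. The antibodies were against ENO1 (enolase 1, an enzyme of glycolysis), H4K12la (histone H4 lactylated at lysine 12) and HDAC1 (a histone deacetylase). Each of these 3 groups had 2 replicate libraries from HepG2 cells, with no genotype or treatment named, and the labels do not say that the replicates were separate cultures, so the agreement between them may be technical. A gene was scored when a peak lay within 1 kb of either of its annotated ends. A peak's fold is the authors' enrichment over the background of its own library. Folds were compared within a library, except that genes were also ranked by the lower fold of the 2 replicates of a target.

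DNA repair is divided among pathways that read different lesions. Mismatch repair corrects copying errors, nucleotide excision repair removes bulky adducts, and single-strand break repair, helped by PARP enzymes, reseals nicks. Double-strand breaks are joined end to end or copied from the sister chromatid by homologous recombination, the Fanconi anemia proteins unhook crosslinks, and the ATM and ATR kinases signal damage to the cell cycle. Lysine lactylation of histones draws on lactate, and H4K12la has been studied as a mark of active promoters. HDAC1 removes acyl groups from histone tails.

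H4K12la lay at the ends of 14 of the 73 repair genes in both replicates and HDAC1 at 11, while ENO1 lay at none in either replicate. The H4K12la share was 19.2% (Wilson 95% interval 11.8 to 29.7), against 10.4% of the 19793 other protein-coding genes. For HDAC1 it was 15.1% (8.63 to 25.0), against 8.16% of the others, close to the lower limit. Among the 11 HDAC1 genes are BRCA1 and PARP2, whose peaks lie over neighbouring genes, as described below. A peak shared by neighbours counts for each of them, among repair genes and other genes alike. For ENO1 the 0 of 73 genes allows a share of up to 4.11%, and 0.0657% of the other genes carried it, so no difference could be seen with this many genes. ATM, RAD1, PALB2 and ERCC6L2 carried H4K12la and HDAC1 together, 28.6% of the H4K12la repair genes and 36.4% of the HDAC1 repair genes. Among the other genes these shares were 30.4% and 38.8%. Intervals cover counting error only, with genes as units, and no test of the list was run. Neither excess was seen with only the 1189 strongest peaks of each library, where H4K12la was left at 0 repair genes (1.17% of others) and HDAC1 at 1 (1.48% of others), shares too low to be compared over 73 genes. With peaks of a -log10 q of 5 or more, each target marked 10 repair genes (13.7%), against 6.08% of the others for H4K12la and 6.28% for HDAC1. Scored at the start given in the promoter table, in place of the outermost ends, RAD51AP2 gained H4K12la and RAD52 gained HDAC1 in both replicates, which gave 14 (23.0%, others 11.1%) and 11 (18.0%, others 8.38%) of the 61 repair genes with an entry.

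A peak in a single replicate was more frequent for H4K12la than a peak in both. H4K12la had it at 18 repair genes (24.7%, against 12% of the other genes), 13 of them in replicate 2, whose list is the longer, and 5 in replicate 1. HDAC1 had it at 5 (6.85%, against 8.58% of the others), 4 in replicate 1 and 1 in replicate 2. ENO1 had it at none, with 0.136% of the other genes. By library, H4K12la marked 19 and 27 repair genes in replicates 1 and 2, or 26.0% and 37.0%, where 13.4% and 19.5% of the other genes were marked. HDAC1 marked 15 and 12, or 20.5% and 16.4%, where 14.8% and 10.1% of the others were marked. In all, 37 repair genes (50.7%) had a gene-end peak in at least 1 library and 36 (49.3%) had none. Of the other genes, 71.0% had none.

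The lists held 1189 to 7568 peaks per library on the numbered chromosomes, X and Y, and sequencing depth is unknown, so signal too weak to be called would leave a gene unmarked here. No control library was analysed here, so sequence that every antibody recovers cannot be told apart from occupancy. Replicate peaks overlapped each other at all 14 H4K12la genes and all 11 HDAC1 genes. Strength was ordinary for gene ends. Over the 14 H4K12la repair genes the median fold was 4.08 and 4.15 in replicates 1 and 2, beside 3.98 and 4.27 over the other genes with H4K12la in both. Over the 11 HDAC1 repair genes it was 5.27 and 5.27, beside 5.18 and 4.83.

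**Figure D1:**
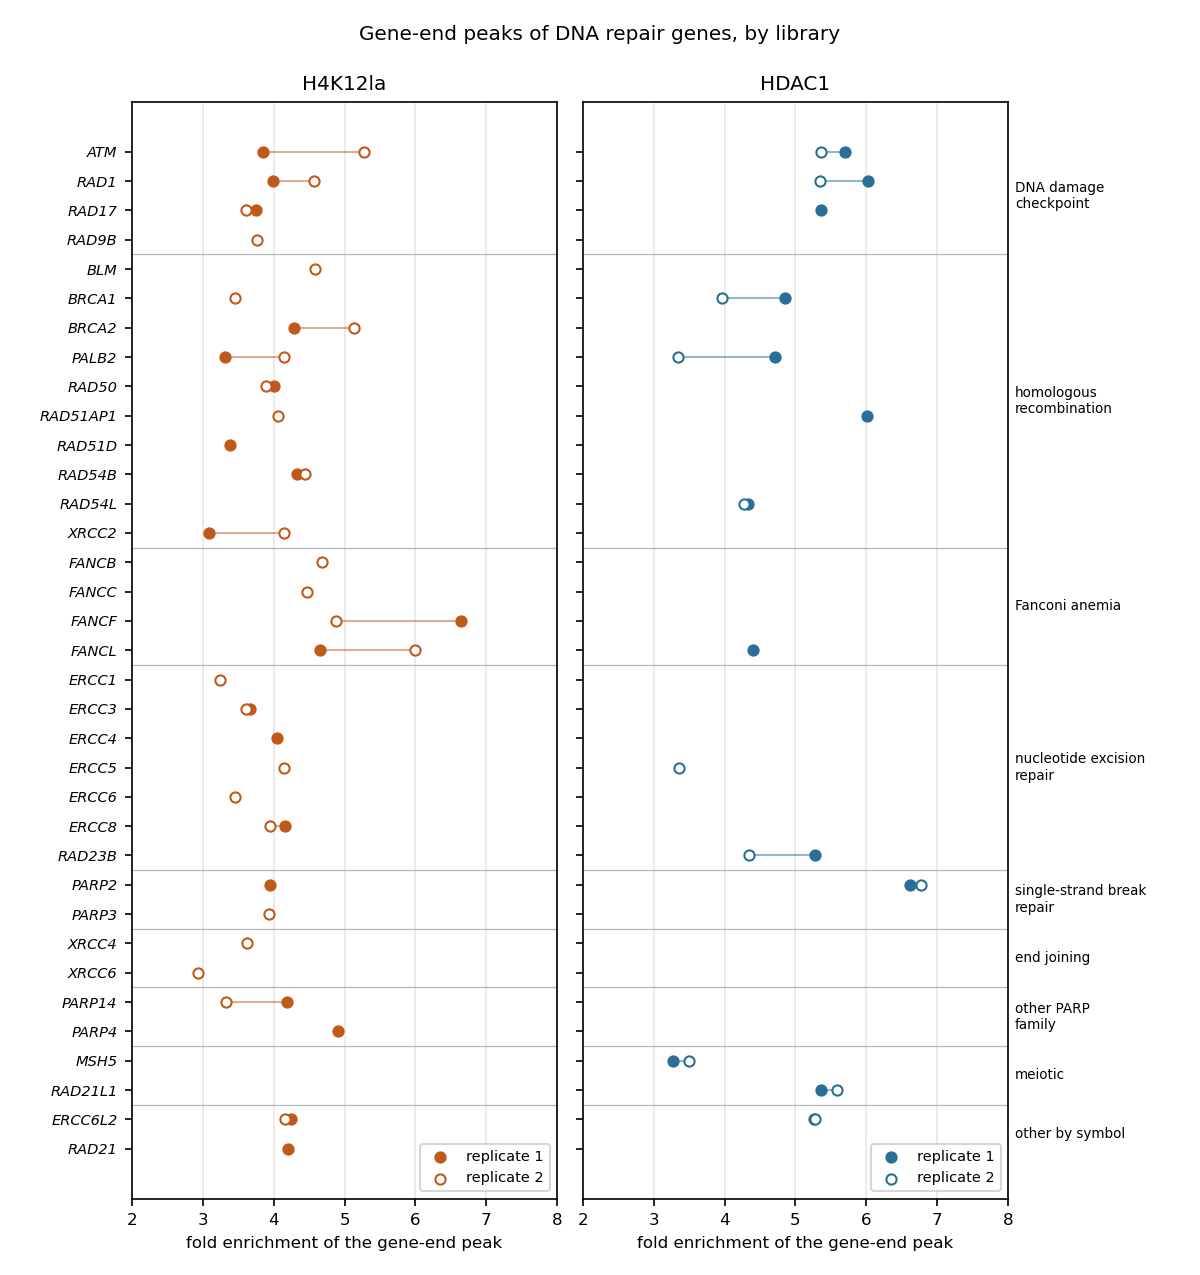
Fold enrichment (x axis) of the strongest gene-end peak of 35 repair genes with a peak (y axis, grouped by pathway), for H4K12la and HDAC1; filled points are replicate 1, open points replicate 2, and a line joins genes with both. Among the genes shown, H4K12la reaches its highest value at FANCF (6.65) and HDAC1 at PARP2 (6.77), and 4 genes have joined points in both panels.

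The promoters below are the 3 with the highest lower fold for H4K12la (FANCF, ERCC6L2, RAD1) and the 3 for HDAC1 (PARP2, ATM, RAD21L1), among repair genes whose start in the RefSeq promoter table (GRCh38.p14) is also the outermost end of the gene. They are shown because the peaks described next lie on or beside them. Each is the 140 bases just before the start, 5′ to 3′ on the gene's strand. Capitals mark any match on either strand to the CCAAT box (CCAAT), the GC box (GGGCGG), the ETS core (CCGGAAG), the E2F core (TTCCCGC), the NRF1 site (GCGCATGC) or the cAMP response core (TGACG); matches may overlap.
FANCF, chr11:22625824-22625963, minus strand: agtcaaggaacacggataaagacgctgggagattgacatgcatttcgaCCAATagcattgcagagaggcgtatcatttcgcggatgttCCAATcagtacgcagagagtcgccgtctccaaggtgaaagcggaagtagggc
ERCC6L2, chr9:95875551-95875690, plus strand: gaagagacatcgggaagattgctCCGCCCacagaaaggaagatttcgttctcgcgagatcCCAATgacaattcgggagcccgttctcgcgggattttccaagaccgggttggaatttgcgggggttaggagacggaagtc
RAD1, chr5:34915505-34915644, minus strand: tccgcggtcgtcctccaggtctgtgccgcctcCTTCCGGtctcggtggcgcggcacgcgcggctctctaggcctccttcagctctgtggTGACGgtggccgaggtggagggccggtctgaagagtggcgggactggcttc
ATM, chr11:108222927-108223066, plus strand: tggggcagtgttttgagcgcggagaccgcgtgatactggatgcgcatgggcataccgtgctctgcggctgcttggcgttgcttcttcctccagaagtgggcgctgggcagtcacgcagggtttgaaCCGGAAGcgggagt
PARP2, chr14:20343495-20343634, plus strand: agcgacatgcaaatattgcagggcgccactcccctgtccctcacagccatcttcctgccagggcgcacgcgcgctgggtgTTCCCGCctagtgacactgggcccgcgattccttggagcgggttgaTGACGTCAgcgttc
RAD21L1, chr20:1225904-1226043, plus strand: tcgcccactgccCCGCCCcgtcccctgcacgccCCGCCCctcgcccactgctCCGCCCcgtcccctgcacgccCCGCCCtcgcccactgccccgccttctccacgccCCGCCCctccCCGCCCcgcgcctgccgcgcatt

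Read side by side, these stretches differ in make-up. FANCF holds a pair of CCAAT boxes in a stretch of 50.7% GC with 10 CpG. RAD21L1 is 82.1% GC with 19 CpG and repeats the GC box 6 times. PARP2 holds the cAMP response core and its reverse complement overlapping, close to the start. ATM and RAD1 each hold an ETS core, read forward in ATM and in reverse in RAD1. ERCC6L2 has a GC box and a CCAAT box.

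In the pathways that follow, counts are of few genes each and stand beside the 10.4% (H4K12la) and 8.16% (HDAC1) of other genes; no pathway was tested. Checkpoint genes carried H4K12la at 3 of 6 members in both replicates and HDAC1 at 2 of 6. ATM (chromosome 11, 108223067 to 108369102), the kinase activated by double-strand breaks, had H4K12la at 3.84-fold and 5.27-fold in replicates 1 and 2 and HDAC1 at 5.70-fold and 5.37-fold. All 4 ATM peaks covered the annotated start, with summits at 4 and 182 bp from it for H4K12la and at 99 and -91 bp for HDAC1 (negative is upstream), and all overlap the promoter printed above. RAD1 (chromosome 5, 34905260 to 34915504), a subunit of the checkpoint clamp that is loaded at damaged DNA, had H4K12la at 3.99-fold and 4.56-fold and HDAC1 at 6.02-fold and 5.35-fold. At RAD1 the marks were offset: the H4K12la summits lay 464 and 535 bp inside the gene and the HDAC1 summits 55 and 94 bp inside it. RAD17 (chromosome 5, 69369293 to 69414801), which loads that clamp, had H4K12la at both of its ends in both replicates. Its start had 3.50-fold and 3.60-fold, under a peak that also covers AK6 and TAF9, and its far end had 3.75-fold and 3.19-fold beside MARVELD2. HDAC1 was present at RAD17 in replicate 1 only (5.36-fold). RAD9B, a paralogue of another clamp subunit, had H4K12la in replicate 2 only (3.77-fold), and ATR, the kinase activated by single-stranded DNA, and RAD9A had no peak.

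Homologous recombination genes carried H4K12la at 5 of 16 members in both replicates and HDAC1 at 3 of 16. BRCA2 (chromosome 13, 32315077 to 32400268), a mediator of strand exchange, had H4K12la at 4.29-fold and 5.13-fold and no HDAC1. PALB2 (chromosome 16, 23603165 to 23641310), the partner that brings BRCA2 to breaks, had weak peaks of both targets. Its H4K12la was 3.31-fold and 4.14-fold, and its HDAC1 4.71-fold and 3.34-fold, the latter at the 6.37th percentile of HDAC1 genes by the lower fold. RAD50, of the complex that tethers broken ends, had H4K12la at 4.00-fold and 3.89-fold. RAD54B, a motor protein of strand exchange, had 4.33-fold and 4.45-fold, and XRCC2, which acts in strand exchange, 3.09-fold and 4.14-fold. The lower XRCC2 value stood at the 9.29th percentile of genes with H4K12la. RAD50, RAD54B and XRCC2 had no HDAC1. RAD54L, the main strand-exchange motor, was the reverse, with HDAC1 at 4.33-fold and 4.27-fold and no H4K12la. Peaks in 1 replicate were found for H4K12la at BLM (4.58-fold, replicate 2), a helicase that dissolves recombination intermediates, and at RAD51D (3.39-fold, replicate 1). RAD51AP1, which stimulates strand exchange, had H4K12la in replicate 2 (4.07-fold) and HDAC1 in replicate 1 (6.01-fold). WRN, RAD51B, RAD51C, RAD52 and XRCC3 had no gene-end peak. RAD52, which anneals single strands, did have HDAC1 within 1 kb of its start in the promoter table (949694 on chromosome 12), at 3.98-fold and 4.19-fold. Those peaks of the replicates did not overlap each other, and the one of replicate 2 covered the start.

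BRCA1, the ubiquitin ligase subunit that promotes end resection, depends on which start is meant. The gene table places its outermost start at 43170327 on chromosome 17, 82 bp from the start of NBR1. There HDAC1 had 4.86-fold and 3.96-fold in replicates 1 and 2 and H4K12la 3.46-fold in replicate 2 only. The summits of these 3 peaks lay at -753 to -363 bp from that start, on the NBR1 side. BRCA1 is best known from a promoter it shares with NBR2, whose start at 43125557 lies inside the BRCA1 entry used here. At that place HDAC1 had a peak in replicate 1 only (43125022 to 43125636, 3.32-fold). H4K12la had a peak in both replicates a little further into NBR2 (43126973 to 43127367, 3.68-fold, and 43126763 to 43127445, 3.79-fold). Within 1 kb of the NBR2 start, a place chosen after the values were seen, the HDAC1 peak of replicate 1 was therefore alone.

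Fanconi anemia genes carried H4K12la at 2 of 10 members in both replicates and HDAC1 at 0 of 10. With 10 genes, that 0 cannot be told apart from the 8.16% of other genes. Among the 73 repair genes, the highest H4K12la fold lay at FANCF in replicate 1 and at FANCL in replicate 2. FANCF (chromosome 11, 22622533 to 22625823), an adaptor of the core complex encoded by a single exon, had H4K12la at 6.65-fold and 4.87-fold. Its lower value stood at the 89.8th percentile of genes with H4K12la. FANCL (chromosome 2, 58159243 to 58241380), the ubiquitin ligase of that complex, had H4K12la at 4.65-fold and 5.99-fold, and HDAC1 in replicate 1 only (4.40-fold). In FANCF and FANCL the H4K12la summits lay 291 to 397 bp into the gene. FANCB and FANCC, also of the core complex, had H4K12la in replicate 2 only (4.68-fold and 4.46-fold). FANCA, FANCD2, FANCE, FANCG, FANCI and FANCM had no gene-end peak.

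Nucleotide excision repair genes carried H4K12la at 2 of 9 members in both replicates and HDAC1 at 1 of 9 (11.1%). ERCC3, a helicase of transcription factor TFIIH, had H4K12la at 3.67-fold and 3.61-fold, with summits 66 and 42 bp inside the gene. ERCC8, which acts when RNA polymerase stalls at damage, had 4.15-fold and 3.94-fold. Its summits lay at -546 and -643 bp from the start, within the neighbouring NDUFAF2. RAD23B, which stabilises the damage sensor XPC, had HDAC1 at 5.27-fold and 4.34-fold, each with its summit at -72 bp from the start. The nuclease genes ERCC4 (4.04-fold, replicate 1) and ERCC5 (4.14-fold, replicate 2) and the helicase gene ERCC6 (3.46-fold, replicate 2) had H4K12la in 1 replicate. ERCC5 also had HDAC1 in replicate 2 (3.36-fold). ERCC1 had H4K12la at its far end, over POLR1G, in replicate 2 (3.24-fold). ERCC2 had none.

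By the lower fold of the replicates, the strongest HDAC1 among repair genes lay in single-strand break repair, at PARP2. Of the 5 mismatch repair genes, MSH3, MSH6 and MLH3 had no gene-end peak, and the others are not reported here by name. PARP2 (chromosome 14, 20343635 to 20357904), which marks breaks with poly(ADP-ribose), had HDAC1 at 6.61-fold and 6.77-fold, the 93.1st percentile of HDAC1 genes by its lower fold, and H4K12la in replicate 1 only (3.95-fold). Its HDAC1 summits lay at -309 and -303 bp from the start, inside RPPH1 (20343071 to 20343411), the gene of the RNase P RNA, so the peak cannot be assigned to PARP2 alone. PARP3 had H4K12la in replicate 2 (3.93-fold). PARP1, the major sensor of breaks, and its scaffold partner XRCC1 had no peak.

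Of the end-joining genes, XRCC4 (3.62-fold) and XRCC6 (2.92-fold) had H4K12la in replicate 2 only, and XRCC5 had none, as was the case for RAD18, a ligase of post-replication repair. Among genes not assigned to these pathways here, PARP14, a mono-ADP-ribosyltransferase, had H4K12la at 4.18-fold and 3.33-fold. PARP4 (4.91-fold) and the cohesin gene RAD21 (4.21-fold) had H4K12la in replicate 1 only. ERCC6L2 (chromosome 9, 95875691 to 96041092), a helicase-like relative of ERCC6, carried both targets, with H4K12la at 4.24-fold and 4.16-fold and HDAC1 at 5.26-fold and 5.27-fold. The germline genes RAD21L1, a meiotic cohesin, and MSH5, which acts at crossovers, carried HDAC1 (5.36-fold and 5.58-fold, 3.27-fold and 3.49-fold) and no H4K12la. The MSH5 peaks were weak, at the 5.17th percentile of HDAC1 genes by the lower fold. RAD51AP2, a meiotic protein, had no peak at its outermost ends but had H4K12la at 5.78-fold and 5.17-fold over its start in the promoter table (17518440 on chromosome 2). MSH4, RAD54L2, ERCC6L, FANCD2OS, PARP6, PARP8, PARP9, PARP10, PARP11, PARP12, PARP15 and PARP16 had no gene-end peak.

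**Figure D2:**
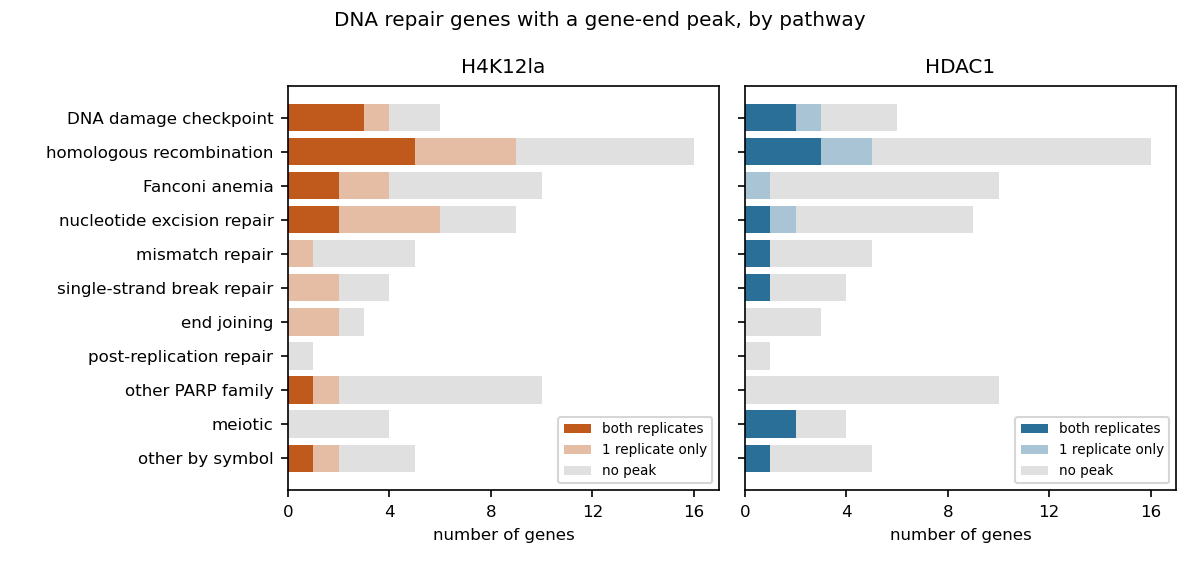
Number of repair genes (x axis) in each pathway (y axis) with a gene-end peak in both replicates, in 1 replicate only or in none, for H4K12la and HDAC1. Checkpoint genes have H4K12la in both replicates at 3 of 6 and recombination genes at 5 of 16. Mismatch repair (5 genes), single-strand break repair (4 genes) and end joining (3 genes) have it at none. These groups are too small to be compared with the 10.4% of other genes.

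The repair pathways outside the symbol rule were represented by a further 114 genes, some in more than 1 pathway. Of these, 17 carried H4K12la (14.9%, against 10.4% of the genes outside the symbol rule) and 18 HDAC1 (15.8%, against 8.16%) in both replicates, and none had ENO1. Mismatch repair, with only 5 genes here, had HDAC1 at 3 and H4K12la at 2. Among them were PMS1 (H4K12la 3.22-fold and 4.87-fold, HDAC1 5.47-fold and 5.27-fold) and PMS2, the nuclease subunit (H4K12la 2.94-fold and 3.17-fold), whose peaks are uncertain because near-identical copies exist. Ligase LIG1 (3.61-fold and 5.08-fold) and the sliding clamp PCNA (5.25-fold and 3.76-fold) had HDAC1. In base excision and single-strand break repair, 5 of 20 genes had HDAC1 and 3 had H4K12la. APEX1, which cuts at abasic sites (HDAC1 5.13-fold and 4.96-fold), and TDG, a thymine glycosylase (H4K12la 4.44-fold and 5.08-fold, HDAC1 4.44-fold and 4.34-fold), had both. POLB, the gap-filling polymerase, had H4K12la at 4.71-fold and 5.98-fold, and TDP1, which frees trapped topoisomerase, had HDAC1 at 3.93-fold and 4.82-fold.

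Recombination genes of that wider set carried H4K12la at 5 of 26 and HDAC1 at 6 of 26. SWSAP1, of the Shu complex, had HDAC1 at 7.74-fold and 5.79-fold, RMI1, of the BLM complex, 6.03-fold and 5.39-fold, and BARD1, the partner of BRCA1, 5.07-fold and 5.49-fold. SEM1, which binds BRCA2, had H4K12la at 5.59-fold and 4.90-fold. Of 14 checkpoint genes, ETAA1, an activator of ATR, had H4K12la (5.08-fold and 5.49-fold), and CLSPN, a mediator of ATR, had both (H4K12la 3.64-fold and 4.67-fold, HDAC1 5.22-fold and 4.67-fold). No other gene of these 14 had H4K12la or HDAC1 in both replicates. Among 11 Fanconi anemia genes, USP1, which removes ubiquitin from FANCD2, had HDAC1 (5.79-fold and 5.34-fold), and the helicase gene BRIP1 had H4K12la (3.55-fold and 3.38-fold). Nucleotide excision repair had H4K12la at 3 of 19 genes, GTF2H5 (3.79-fold and 4.29-fold), GTF2H1 (3.56-fold and 3.50-fold) and RPA1 (3.64-fold and 3.52-fold). HDAC1 was there at 1 of the 19 (5.26%) in both replicates. Translesion synthesis had HDAC1 at 3 of 14, with the scaffold polymerase REV1 at 6.85-fold and 5.38-fold and REV3L, the catalytic subunit of polymerase zeta, at 3.95-fold and 3.78-fold. SHPRH, a ligase that modifies PCNA, was alone of these 14 (7.14%) in carrying H4K12la in both replicates, at 4.60-fold and 4.39-fold. In end joining, the nuclease gene DCLRE1C was alone of 7 genes in carrying H4K12la (3.49-fold and 4.09-fold) in both replicates. HDAC1 was at 0 of these 7 in both replicates and at 5 in 1 replicate only. No gene of 3 for direct reversal had a peak.

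Some occupied repair genes start head to head with another protein-coding gene. Among those with H4K12la in both replicates and an entry in the promoter table these were 6 of 13, beside 412 of 1754 other genes. For HDAC1 they were 4 of 10, beside 363 of 1381. Of the 61 repair genes with an entry in the promoter table, 15 (24.6%) had the start of a protein-coding gene on the opposite strand between 1000 bp upstream and 200 bp downstream of their own start, against 10.7% of 15781 other genes. Among these 15, H4K12la was present in both replicates at 6 (40.0%, Wilson 19.8 to 64.3): ATM with NPAT, BRCA2 with ZAR1L, ERCC8 with NDUFAF2, PALB2 with DCTN5, RAD1 with BRIX1, and RAD17 with AK6 and TAF9. In other genes with such starts it was present at 24.4%. Among the 46 repair genes without one it was present at 7 (15.2%, 7.57 to 28.2), against 9.52% of other genes of that kind. HDAC1 was present at 4 of the 15 (26.7%, 10.9 to 52.0), against 21.5%, and at 6 of the 46 (13.0%, 6.12 to 25.7), against 7.22%. The repair share was the higher in each of these comparisons. Each interval for the repair genes also contains the share of the other genes with the same kind of start. With 15 and 46 genes the intervals are too wide to show whether the shares differ. A peak between divergent starts counts for both genes, and this division was chosen after the values were seen.

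**Figure D3:**
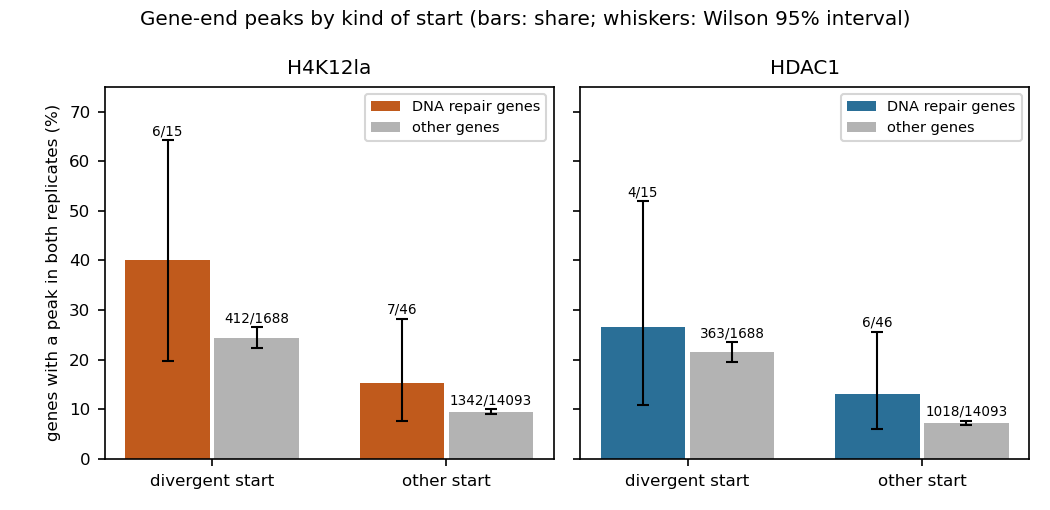
Share of genes with a peak in both replicates (y axis, percent) among genes with and without a divergent protein-coding start, for repair genes (coloured) and other protein-coding genes (grey); whiskers are Wilson 95% intervals and the fractions are gene counts. Divergent starts have the taller bars in each panel, 40.0% against 15.2% for H4K12la at repair genes.

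Nearly all gene-end peaks lay at starts. Of the peaks at repair genes with a known strand, 40 of H4K12la and 24 of HDAC1 lay at the start, and 3 of H4K12la, at RAD17 and ERCC1, lay at the far end. The median summit position differed between H4K12la and HDAC1, over sets of genes that only partly overlap, so the same starts were not compared. Over 25 H4K12la peaks at 13 repair genes the median summit was 42 bp downstream of the start, with 56.0% downstream, and over 20 HDAC1 peaks at 10 genes the median was -154.5 bp, that is upstream, with 30.0% downstream. The other genes gave 61 bp and 58.0% for H4K12la and -140 bp and 34.7% for HDAC1, so the offset is shared with gene ends in general. Starts are 1 per gene in the promoter table, and the position was given without a test.

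**Figure D4:**
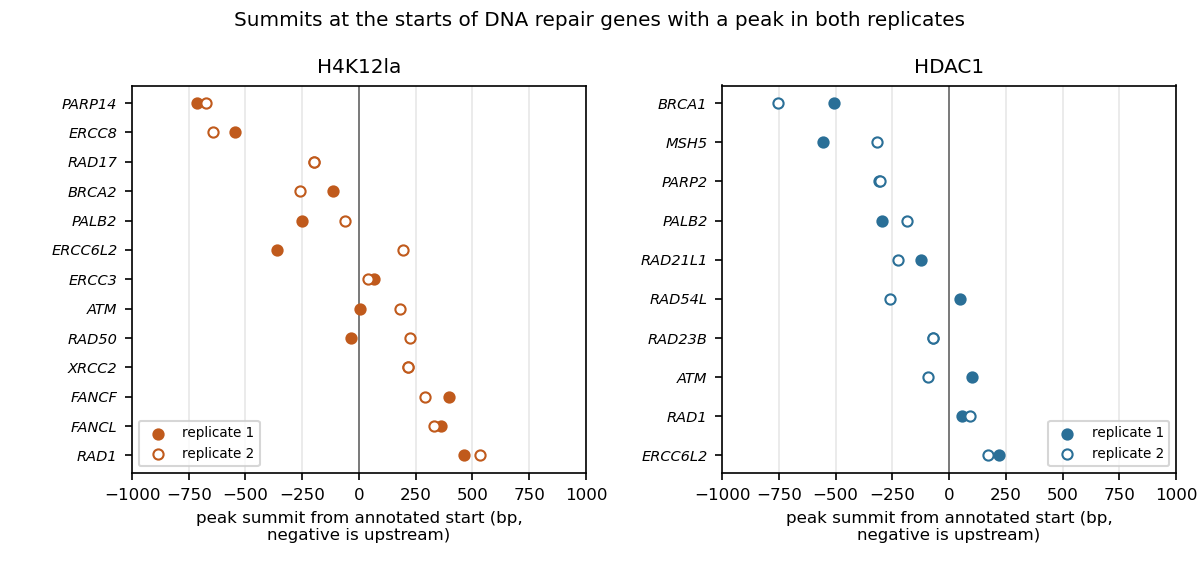
Distance of the peak summit from the annotated start (x axis, bp, negative upstream) for repair genes with a peak in both replicates and a known start (y axis); filled points are replicate 1, open points replicate 2. H4K12la summits run from PARP14 at -715 bp to RAD1 at 535 bp, and HDAC1 summits from BRCA1 at -753 bp to ERCC6L2 at 222 bp.

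Inside gene bodies, more than 1 kb from both ends, H4K12la had peaks in both replicates at 5 repair genes (6.85%, against 4.6% of the other genes) and HDAC1 at 3 (4.11%, against 2.75%). ENO1 had them at none (0.394% of the others). Leaving out peaks within 1 kb of the start in the promoter table removed RAD51AP2 and RAD52 and left 4 (5.48%, others 4.10%) and 2 (2.74%, others 2.44%). The H4K12la genes were then FANCL, FANCC, BRCA1 and RAD54B. FANCL held overlapping peaks on chromosome 2 in the replicates (58171643 to 58172388, 5.54-fold, and 58171206 to 58172322, 5.32-fold) and another pair further up (4.29-fold and 4.86-fold). FANCC had 4.08-fold and 5.55-fold. In RAD54B the peaks of the replicates lay at different places. The HDAC1 genes were then RAD51B and ERCC1. ERCC1, the partner of the ERCC4 nuclease, had HDAC1 at 5.77-fold and 4.64-fold on chromosome 19 (45423632 to 45424457 and 45423626 to 45424025), with H4K12la at 3.89-fold in replicate 1. The ERCC1 entry spans 44214 bp, and starts of shorter transcripts, which the table does not list, would count here as gene body. RAD51B had HDAC1 at 5.43-fold and 5.88-fold (chromosome 14, 68295477 to 68295837 and 68295404 to 68295809), where H4K12la reached 5.47-fold in replicate 2. Another overlapping pair of HDAC1 peaks in RAD51B lay over RAD51B-AS1 (3.79-fold and 4.23-fold). The RAD51B entry spans 863318 bp. Gene length was not matched between repair genes and others in the gene-body shares.

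ENO1 peaks were sparse around repair genes and other genes alike. The median distance from a repair gene to the nearest ENO1 peak was 1641 kb in replicate 1 and 4814 kb in replicate 2, beside 1935 kb and 3445 kb for other genes. In each replicate, 1 of the 73 genes (1.37%) had such a peak within 50 kb, against 3.95% and 2.14% of the others. The repair genes' median was thus below the others' in replicate 1 and above it in replicate 2.

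Promoter motifs were counted in repair genes as a whole and in those with gene-end peaks; RAD51AP2 and RAD52 fall among those without. The E2F core was found in 19 of 61 repair promoters (31.1%), against 8.60% of all 15842 protein-coding promoters of 300 bases. It was in 2 of the 13 with H4K12la (15.4%), in 3 of the 10 with HDAC1 (30.0%) and in 10 of the 29 without any peak (34.5%). Of the other genes, 10.6% of those with H4K12la and 10.3% of those with HDAC1 held it. The ETS core was in 15 of 61 (24.6%), beside 14.2% of all promoters. It was in 6 of the 13 with H4K12la (46.2%), in 3 of the 10 with HDAC1 (30.0%) and in 3 of the 29 without a peak (10.3%). Of the other genes, 24.3% of those with H4K12la and 19.5% of those with HDAC1 held it. The cAMP response core was in 25 of 61 (41.0%, all promoters 29.5%). It was in 5 of the 13 with H4K12la (38.5%), in 3 of the 10 with HDAC1 (30.0%) and in 16 of the 29 without a peak (55.2%). Of the other genes, 38.7% of those with H4K12la and 38.8% of those with HDAC1 held it. The GC box was in 44 of 61 (72.1%, all 58.5%), the CCAAT box in 24 (39.3%, all 36.4%) and the NRF1 site in 6 (9.84%, all 4.26%). Median GC content was 64.3% for repair promoters and 62.7% for all, and the median number of CpG was 28 against 22. Among repair genes without a peak it was 29. These are matches of letters within a window, with no test.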

How the data were processed

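CUT&Tag libraries (6 in all, 2 for each of 3 targets, grouped by title) were analysed. FastQC, Bowtie2, MACS2, deepTools and the hg38 build are named, per the submitters' processing notes; no setting or version is given there. Each library has 1 narrow peak list. Each deposited list gives the authors' fold enrichment (a ratio over background within the library), the -log10 of p and q, a score of about 10 times that -log10 q, and a summit position. The deposited lists end at a q of 0.01, and depth is unknown.

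Peaks on chromosomes 1 to 22, X and Y overlapping by at least 1 bp a window of 1 kb around either end of a RefSeq protein-coding gene (GRCh38.p14) were scored, and the highest fold per library was kept. Table entries on alternate or unplaced sequences (718, of which 171 protein-coding) were left out. Starts and strands came from the RefSeq promoter table (61 of 73 repair genes, 15842 of 19866 genes). Among those without an entry were FANCD2OS, FANCI, PARP10, PARP4, RAD21, RAD54B, WRN and XRCC5. Pandas 2.3.3 and scipy 1.17.1 were used, and bedtools 2.31.1 scored every gene alike. Of 200 peaks planted inside gene-end windows, 200 were recovered over 19866 genes. None was planted outside the windows, so this checks the code only.

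The members, the pathway lists and the comparisons were chosen with earlier results of these data known. Named by rule were members with a peak in both replicates, the 8 highest folds per target among those with 1 replicate, and some well-known genes; others are named so that members are accounted for. A few genes stay in the counts but are not reported here by name. Of the wider list up to 4 per pathway with the highest lower fold of both replicates were named. Promoters with an inner start or no entry were passed over for printing, a condition added after the values were seen. No test was run: with 2 libraries a target, permuting samples cannot pass 0.05.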

Additional observations from a re-analysis of the deposited data

How the results depend on the processing

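Over 10 alternatives each, the share of repair genes stayed above that of other genes in 9 for H4K12la and in 9 for HDAC1. The exception for both was the equal number of strongest peaks per library, where the counts were 0 and 1 and the differences in share turned to -1.17 and -0.105 percentage points. Fewer peaks enter that setting by construction. With a peak in at least 1 replicate, H4K12la counted 32 genes, 21.4 points above the others, and the ENO1 difference was -0.202 points. Leaving out each replicate gave 19 to 27 H4K12la genes and ENO1 differences of -0.167 to -0.101 points; with windows of 2 kb the ENO1 difference was also -0.101 points. ENO1 had 0 repair genes under each alternative, so its differences follow the other genes alone. The remaining settings (500 bp windows, starts only, -log10 q of 5 or more, summits, members assigned to a repair pathway here) kept each count within 1.5 times. No paired analysis was possible because no result comes from a test. Depth is unknown, so what it limits cannot be given.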
